A study of Mus musculus with 12 samples.

Results

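The genes described here make, phosphorylate or consume NAD, the dinucleotide that carries electrons in metabolism and is used up by sirtuins and by poly(ADP-ribose) polymerases. They are 9 genes listed by name, Nampt, Nmnat1, Nadk, Sirt1, Sirt2, Sirt3, Sirt6, Sirt7 and Parp1, with no threshold on a measured value. All 9 were found among the 50600 gene identifiers of the files, and all 9 passed the filter on low counts that left 16396 genes for testing. Their RNA was read in CD8+ T cells from the lymph nodes of male C57BL/6J mice of 8 weeks that lived in constant darkness, so that daily rhythms ran on the internal clock. The labels name no treatment and no genetic change. Cells were taken at circadian time (CT) 2, 6, 10, 14, 18 and 22 h on each of 2 days, which gave 1 polyA library for each time and day and 12 in all. CT0 to CT12 is the subjective day, in which mice mostly rest, and CT12 to CT24 the subjective night. The labels give neither the number of mice behind a library nor the way the cells were isolated, so the p-values speak of the spread between these libraries, which may be in part technical.

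NAD is rebuilt mainly from nicotinamide, which every sirtuin and poly(ADP-ribose) polymerase reaction releases. Nampt encodes the rate-limiting enzyme of this salvage route, Nmnat1 the nuclear enzyme that completes NAD, and Nadk the cytosolic kinase that turns NAD into NADP. In liver and cultured fibroblasts the clock proteins CLOCK and BMAL1 are known to drive Nampt through E-box elements, and SIRT1, a NAD-dependent deacetylase, is known to act back on the clock. In T cells NAD supply and NAD consumers such as CD38 are known for their effect on activation and survival. The comparison among circadian times asks whether the RNA of these genes followed the time of day in CD8+ T cells.

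The canonical E-box, CACGTG, is its own reverse complement and was searched in the RefSeq promoter windows of mouse build GRCm38.p6, each of 300 bases, 250 before a transcript start and 50 after it. The 9 genes had 13 such windows, and 3 of the 13 held an E-box, 1 each for Sirt1, Parp1 and Nadk. Of all 32851 windows in the reference, 2349 held one, a share of 7.15%. The 4 stretches printed here are the 3 with an E-box and that of Nampt, shown because Nampt is the member best known as a clock target in other tissues. Each is 200 bases long, ends at the base before the transcript start and is written 5′ to 3′ on the gene's strand, with capitals marking the E-box.
Sirt1, chr10:63339036-63339235, minus strand: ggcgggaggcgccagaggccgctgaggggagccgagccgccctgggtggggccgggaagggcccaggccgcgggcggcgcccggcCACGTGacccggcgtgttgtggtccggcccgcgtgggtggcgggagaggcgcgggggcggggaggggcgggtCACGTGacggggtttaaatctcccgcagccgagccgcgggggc
Parp1, chr1:180568691-180568890, plus strand: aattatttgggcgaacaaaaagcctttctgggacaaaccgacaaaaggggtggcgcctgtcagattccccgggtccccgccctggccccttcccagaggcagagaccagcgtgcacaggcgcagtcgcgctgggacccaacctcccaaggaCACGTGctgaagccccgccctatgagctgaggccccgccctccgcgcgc
Nadk, chr4:155563615-155563814, plus strand: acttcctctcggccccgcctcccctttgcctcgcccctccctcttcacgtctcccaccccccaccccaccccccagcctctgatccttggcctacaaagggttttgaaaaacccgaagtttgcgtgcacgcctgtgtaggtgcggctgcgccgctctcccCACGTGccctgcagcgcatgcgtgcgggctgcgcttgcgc
Nampt, chr12:32820135-32820334, plus strand: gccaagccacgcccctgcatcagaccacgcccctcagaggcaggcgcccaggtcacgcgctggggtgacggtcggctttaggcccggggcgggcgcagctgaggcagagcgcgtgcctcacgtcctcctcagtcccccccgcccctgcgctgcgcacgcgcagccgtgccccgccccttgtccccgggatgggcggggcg
The Sirt1 stretch held 2 E-boxes, beginning at positions -115 and -43 from the start and 66 bases apart, and 195 of all windows, 0.594%, held at least 2. The Parp1 E-box began at position -49 and that of Nadk at -40, in the second of the 2 Nadk windows. No CACGTG was in the window of Nampt, nor in those of Nmnat1, Sirt2, Sirt3, Sirt6 and Sirt7. A match of letters is a description of the window and says nothing of binding in these cells.

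The libraries held 24689964 to 33497078 counts on genes, and the markers of CD8+ T cells were high in all of them. Cd8a, the co-receptor's alpha chain, stood at 1406 ± 99.6 CPM (counts scaled to the size of the library, SD, n = 12). Cd8b1, its beta chain, stood at 1119 ± 94.1 CPM (SD, n = 12), and the CD3 gene Cd3e at 552 ± 38.0 CPM (SD, n = 12). Markers of other cells were also present. The summed level of 10 monocyte and macrophage markers ranged from 280 CPM at CT10 of day 1 to 1218 CPM at CT22 of day 2, a 4.36-fold range, with none of the 10 at 0 in any library. Of 7 neutrophil markers the sum ranged from 11.6 to 102 CPM, and Ly6g, their defining surface marker, reached at most 0.190 CPM with no count in at least 1 library.

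Levels were compared between the genes in TPM, which corrects for gene length. Sirt7, the nucleolar sirtuin, was the highest of the 9 at 93.7 ± 7.49 TPM (SD, n = 12). Parp1, the main poly(ADP-ribose) polymerase of the DNA damage response, followed at 57.5 ± 4.52 TPM, and Nadk at 50.6 ± 5.11 TPM. Sirt2, a mostly cytoplasmic deacetylase, stood at 43.4 ± 2.65 TPM. The lower levels were those of Nampt at 21.3 ± 2.43 TPM, Sirt1 at 17.1 ± 1.27 TPM, the chromatin sirtuin Sirt6 at 12.7 ± 1.29 TPM, the mitochondrial sirtuin Sirt3 at 8.43 ± 0.74 TPM and Nmnat1 at 4.11 ± 0.55 TPM. The NAD kinase Nadk was thus above both enzymes that build NAD, Nampt and Nmnat1, and the sirtuins spread over the whole order.

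The mean difference of each of the 8 neighbouring pairs in this order passed a two-sided exact permutation test over libraries. Adjusted permutation p ran from 0.000651 to 0.00635. Neighbours were chosen by the mean TPM of these same 12 libraries, which fixed the direction of each difference. The pair with the largest adjusted p was Parp1 and Nadk. Their difference was 6.91 ± 6.89 TPM (SD, n = 12), about as large as its spread, with Parp1 higher in 10 of 12 libraries. Nadk was above Sirt2 in 11 of 12 libraries, and in the other 6 pairs the order was the same in 12 of 12. Libraries were not equally placed within a gene. That of CT2 on day 1 had the lowest TPM of 6 of the 9 genes, while it had the lowest CPM of only 3. It also had the lowest TPM of Cd8a (543), Cd3e (357) and Dbp (14.1), but not of Cd8b1 or Per2. The share over all genes was not computed, so the count is no trait of the 9.

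**Figure D1:**
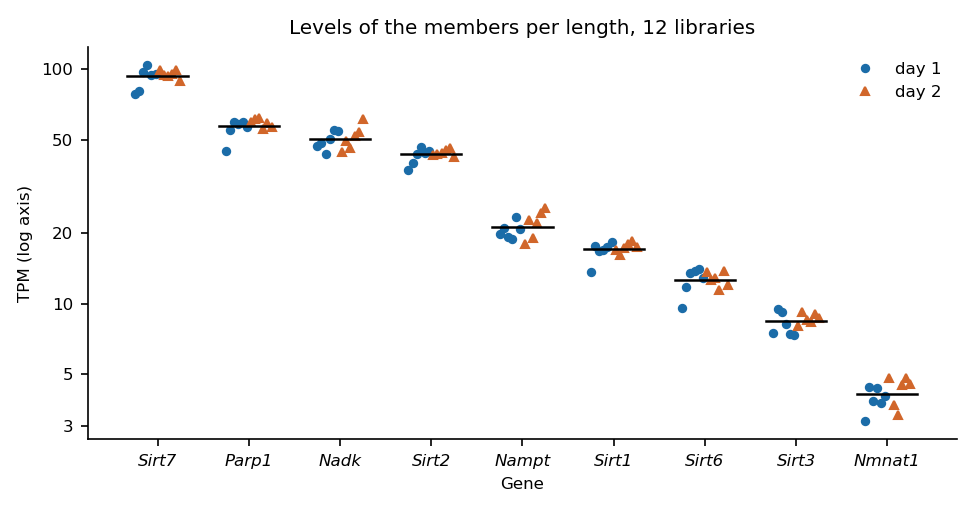
Level of each of the 9 genes in TPM on a log axis, 1 point per library (circles day 1, triangles day 2, in order of circadian time) and a line at the mean. The means fall from 93.7 TPM for Sirt7 to 4.11 TPM for Nmnat1, and Parp1, Nadk and Sirt2 have points that overlap.

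No change across the day was called in any of the 9 genes. None of them passed edgeR's quasi-likelihood test for a 24 h wave at an adjusted p under 0.05, and 1, Nadk, had an unadjusted p under 0.05. Of all 16396 tested genes 0, or 0.00%, passed at the adjusted threshold, and 13.3% had an unadjusted p under 0.05. DESeq2 passed 228 genes for the wave. The test among the 6 circadian times, which allows any shape, also called none of the 9, against 0.256% of all tested genes, and Nadk was again the 1 gene with an unadjusted p under 0.05, against 12.7%. DESeq2 called none of the 9 in the wave or among times, where it passed 485 of all genes. The number of genes that DESeq2 tested is not given here, so its counts stand without a share. The fold between the highest and the lowest library had a median of 1.30 over the 9 genes, and of 1.29 over the 10153 tested genes that averaged 5 CPM or more.

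**Figure D2:**
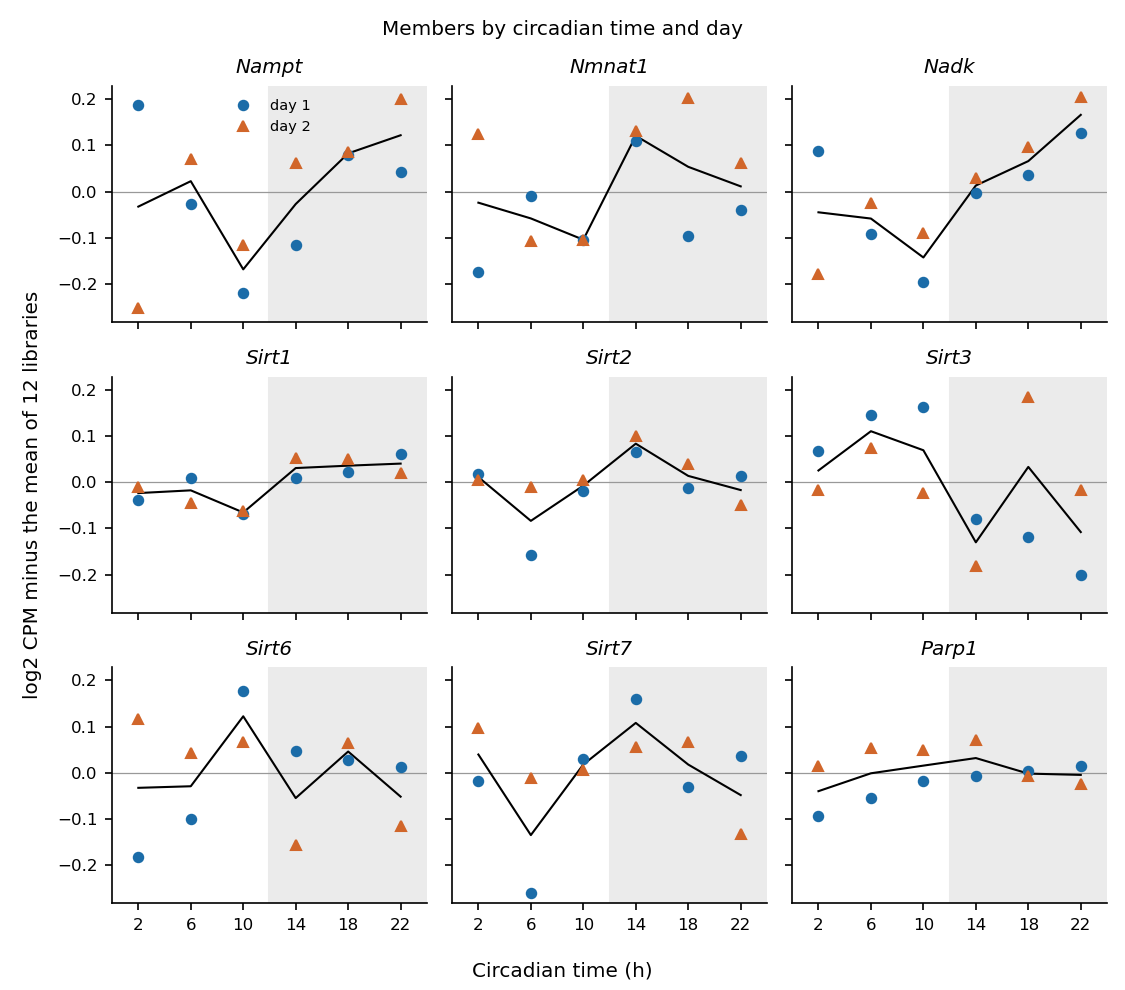
Level of each gene by circadian time in hours, as log2 CPM minus the gene's mean over 12 libraries (circles day 1, triangles day 2, line the mean of both, grey the subjective night). Nadk and Nampt are lowest on average at CT10 and highest at CT22, Sirt1 and Parp1 stay closest to 0, and the days of Nampt lie far apart at CT2.

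Nampt, the rate-limiting step of salvage, stood at 75.7 and 55.8 CPM at CT2 (day 1, then day 2), at 65.3 and 69.8 at CT6 and at 57.0 and 61.3 at CT10. In the subjective night it stood at 61.3 and 69.3 CPM at CT14, at 70.2 and 70.5 at CT18 and at 68.4 and 76.4 at CT22. Both CT10 libraries were thus below both of CT18 and of CT22, but the 2 libraries of CT2 were the second highest and the lowest of all 12. The fitted wave had an amplitude, the log2 distance from mean to peak, of 0.11 ± 0.05 (SE) with a peak at 21.5 ± 1.71 h, and did not pass (edgeR adjusted p = 0.475). The amplitude plus 2 standard errors, 0.206, corresponds to a fold of 1.33 between peak and trough. The gap between the days at CT2 was 0.44 on the log2 scale, larger than the range of 0.29 among the 6 time means.

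Nadk was the member with the largest amplitude and the smallest p. It stood at 121 and 101 CPM at CT2 (day 1, then day 2), at 107 and 112 at CT6 and at 99.3 and 107 at CT10. It then stood at 113 and 116 CPM at CT14, at 117 and 122 at CT18 and at 124 and 131 at CT22. The CT10 libraries were among the 4 lowest and those of CT22 the highest of all, with CT2 again split between the days. The wave had an amplitude of 0.13 ± 0.03 (SE), a fold of 1.19 between peak and trough, and a peak at 20.4 ± 1.03 h. Its p was 0.00858, or 0.256 after adjustment (edgeR). Among circadian times its adjusted p was 0.379. Both adjusted p-values fell below the threshold when the 2 CT2 libraries were left out, to 0.0309 for the wave and 0.0469 among times, and that among times also without either CT2 library alone (0.0376 and 0.0333).

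Nmnat1, the least abundant of the 9, ranged from 5.50 CPM at CT2 of day 1 to 7.13 CPM at CT18 of day 2, with a median of 6.10. Its wave had an amplitude of 0.08 ± 0.06 (SE) and did not pass (edgeR adjusted p = 0.698). The counts behind it were the fewest, 143 to 224 per library.

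Sirt1, the sirtuin best known for its ties to the clock in other tissues, varied little in CPM. It stood at 48.1 and 49.0 CPM at CT2 (day 1, then day 2), at 49.7 and 47.8 at CT6 and at 47.1 and 47.3 at CT10. It then stood at 49.7 and 51.2 CPM at CT14, at 50.1 and 51.1 at CT18 and at 51.5 and 50.1 at CT22. The highest library was thus 1.09 times the lowest, and the coefficient of variation was 3.10%, the smallest of the 9, followed by 3.19% for Parp1. In TPM it was 7.42%, above the 6.11% of Sirt2. Both CT10 libraries were the lowest, and 1 of the night libraries, CT14 of day 1, lay below the highest library of the subjective day. The amplitude was 0.05 ± 0.02 (SE) with a peak at 19.2 ± 1.87 h (edgeR adjusted p = 0.521), and 2 standard errors above it, 0.0926, correspond to a fold of 1.14.

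In CPM, the other sirtuins split into a pair highest at CT14 and a pair highest in the subjective day, with no call in either. Sirt2 ranged from 56.7 to 67.7 CPM (median 63.4) and Sirt7 from 105 to 141 CPM (median 128). Both had their highest time mean at CT14 and their lowest at CT6, where the library of day 1 was the lowest of all 12 for both. Sirt3 ranged from 9.39 to 12.3 CPM (median 10.7), highest on average at CT6 and lowest at CT14. Sirt6 ranged from 15.7 to 20.2 CPM (median 18.3), highest on average at CT10 and lowest at CT14. The split did not hold in TPM, where Sirt6 was highest on average at CT18 (13.9) and lowest at CT2 (11.6). Sirt2 and Sirt3 were also lowest at CT2 in TPM (40.0 and 7.8). Amplitudes were 0.05 ± 0.03 for Sirt2, 0.06 ± 0.04 for Sirt7, 0.08 ± 0.06 for Sirt3 and 0.04 ± 0.05 for Sirt6 (SE), with edgeR adjusted p from 0.575 to 0.846. In Sirt3 and Sirt6 the widest gap between the days of 1 time, 0.30 in each, was larger than the range of time means. The same held narrowly for Sirt7, with a gap of 0.25 at CT6 against a range of 0.24.

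Parp1, a large consumer of NAD, ranged from 146 CPM at CT2 of day 1 to 164 CPM at CT14 of day 2, with a median of 156. Its amplitude was the smallest of the 9, 0.03 ± 0.02 (SE, edgeR adjusted p = 0.773), and 2 standard errors above it correspond to a fold of 1.11 between peak and trough. The 3 genes with a printed E-box thus included the members of smallest and of largest amplitude, Parp1 and Nadk. Over the 9 genes the median amplitude was 0.06, against 0.07 for the 10153 tested genes of at least 5 CPM. A fitted peak in the subjective night was found for 7 of the 9, but none of these waves passed. The share of such peaks over all tested genes was not computed. The peaks of Sirt6, 11.2 ± 4.23 h, and Parp1, 13.1 ± 3.32 h (SE), lay closer to CT12 than their standard errors. For scale, the clock reference genes had amplitudes of 0.17 ± 0.04 (Dbp), 0.26 ± 0.06 (Nr1d1) and 0.23 ± 0.05 (Per2) (SE). Their peaks were at 11.7, 10.6 and 19.0 h, and they too missed the adjusted threshold (edgeR adjusted p = 0.238 for each).

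**Figure D3:**
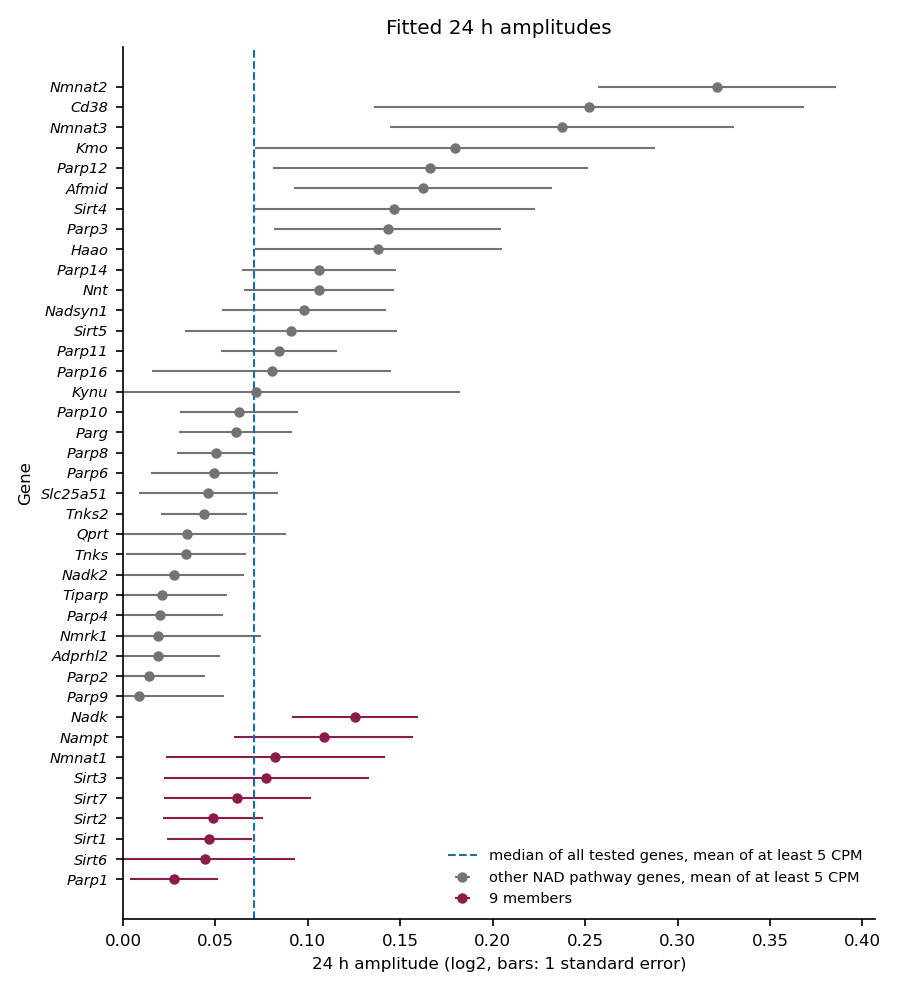
Fitted 24 h amplitude on the log2 scale (points, bars 1 standard error) of the 9 genes and of 31 other NAD pathway genes that averaged 5 CPM or more, with a dashed line at the median of all tested genes of that level, 0.07. Nadk is the highest of the 9 at 0.13 and Parp1 the lowest at 0.03, while Nmnat2 reaches 0.32.

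No difference between the days was called. The difference of day 2 from day 1 lay between 0.00 and 0.10 on the log2 scale for the 9 genes, with no unadjusted p under 0.05, against 1.82% of all tested genes, and an edgeR adjusted p of 1 for each. The test of whether the wave differed between days called none of the 9 (edgeR adjusted p from 0.825 to 0.962). There 4.44% of all tested genes, and none of the 9, had an unadjusted p under 0.05. Fitted within a day, the Nampt wave had an amplitude of 0.17 ± 0.07 (SE) and peaked at 23.3 h on day 1, and on day 2 it had 0.11 ± 0.07 (SE) and peaked at 18.2 h. Nadk had 0.14 ± 0.05 at 21.7 h and 0.13 ± 0.05 at 18.9 h. In 6 of the 9 genes the widest gap between the days of 1 circadian time was larger than the range of the time means. That sets a gap between single libraries against a range of 2-library means, and the share over all tested genes was not computed.

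Of 40 other genes of NAD metabolism, 35 could be tested, comprising 14 of 19 synthesis genes, both other sirtuins, all 16 genes of the PARP family list and all 3 NAD glycohydrolases. None passed for the 24 h wave (edgeR), and 2 of the 35 had an unadjusted p under 0.05, a smaller share than the 13.3% of all tested genes. Among circadian times 1 of the 35 passed, Parp3, against 0.256% of all tested genes, and 6 had an unadjusted p under 0.05, against 12.7%. No sirtuin and no glycohydrolase passed either test. The median amplitude over the 35 was 0.08.

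Parp3, a relative of Parp1 in the PARP family, stood at 82.3 and 82.6 CPM at CT2 (day 1, then day 2), at 60.9 and 62.5 at CT6 and at 68.5 and 66.1 at CT10. It then stood at 91.3 and 88.1 CPM at CT14, at 77.3 and 78.6 at CT18 and at 72.5 and 68.7 at CT22. The levels differed among times (edgeR adjusted p = 0.0116), with CT14 above and CT6 below every other library on both days. The 24 h wave did not pass (edgeR adjusted p = 0.457). The call among times was lost without either CT14 library (adjusted p = 0.117 and 0.109), without CT6 of day 1 (0.0675) and without either CT18 library (0.0548 and 0.0550).

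Nmnat3 and Nmnat2, relatives of Nmnat1 that act in mitochondria and in axons and the Golgi, had their lowest mean at CT14. Nmnat3 ranged from 7.56 to 14.8 CPM and missed the threshold among times (edgeR adjusted p = 0.0775). Its 2 CT14 libraries, at 7.56 and 7.67 CPM, were below the other 10. Nmnat2 lay between 7.25 and 13.8 CPM, and its wave, of amplitude 0.32 ± 0.06 (SE) and peak time 4.69 ± 0.77 h, missed the threshold too (edgeR adjusted p = 0.238). Haao, an enzyme of NAD synthesis from tryptophan, ranged from 25.3 to 40.7 CPM and was lowest on average at CT14 too (edgeR adjusted p among times = 0.111). Bst1, an ectoenzyme that cleaves NAD and is known from myeloid cells, ranged from 1.24 to 9.21 CPM, lowest at CT10 and highest at CT22, with an amplitude of 0.62 ± 0.22 (SE, edgeR adjusted p = 0.355). Parp11 had an amplitude of 0.08 ± 0.03 (SE, edgeR adjusted p = 0.379).

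In CPM, the times at which Nampt and Nadk were low and high were also those of the myeloid markers. In part they were those of markers of other cells. In TPM, Nampt was lowest on average at CT2 (18.9, against 19.1 at CT10) and highest at CT18 (23.9, against 23.3 at CT22). Nadk was lowest at CT10 (44.85) and highest at CT22 (57.9) in TPM too. The sum of 10 monocyte and macrophage markers was 280 and 480 CPM in the 2 libraries of CT10, and 955 and 1218 CPM in those of CT22. At CT2 the sum stood at 828 CPM on day 1 and at 290 CPM on day 2. All 10 markers had their highest mean at CT22 and 9 of the 10 their lowest at CT10. All 10 had an unadjusted p under 0.05 for the 24 h wave, none passed after adjustment (edgeR), and their median amplitude was 0.58. Of 7 B cell markers, 5 had their highest mean at CT22 and 6 their lowest at CT10, and their sum ranged 2.02-fold with CT2 of day 2 lowest. All 7 were lower on day 2, with log2 differences from -0.34 (Cd79b) to -0.53 (Ms4a1). Their unadjusted p for the day ran from 0.000143 to 0.00105, and none passed after adjustment (edgeR). All 3 NK cell markers and 3 of 4 dendritic cell markers were lowest on average at CT10. CT10 of day 1 had the lowest sum of CD4 T cell, NK cell and dendritic cell markers. No B cell, NK cell or dendritic cell marker had an unadjusted p under 0.05 for the wave or among times (edgeR). Relations of the 9 genes with these lists were not tested. In bulk RNA, fewer cells of a type and less RNA per cell cannot be told apart.

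Relations across the 12 libraries were computed for 21 pairs of log2 values, with 100000 two-sided permutations, and 4 passed after adjustment over the 21. These permutations treat the 2 libraries of a time as independent. Nadk went with the monocyte and macrophage sum at r = 0.97 (permutation p = 1e-05, the smallest they can give, adjusted 0.00021) and rho = 0.98 (p = 1e-05, adjusted 0.00021). Without CT10 of day 1 and CT2 of day 2, the libraries farthest from the median sum, r fell to 0.93. Day 1 alone gave 0.97, as did day 2 alone. Nampt went with the same sum at r = 0.94 (permutation p = 6e-05, adjusted 0.00063) and rho = 0.86 (p = 0.00058, adjusted 0.00406). Without the same 2 libraries r was 0.86, and within the days 0.89 and 0.98. In CPM, the split of the CT2 libraries in both genes was that of the markers, high on day 1 and low on day 2. In TPM the split was narrower, 19.8 and 18.0 for Nampt and 47.1 and 44.5 for Nadk (day 1, then day 2). With genes and markers both in TPM, r was 0.81 for Nampt and 0.89 for Nadk.

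With the neutrophil sum, Nadk had r = 0.89 (permutation p = 0.00014, adjusted 0.00098) and rho = 0.87 (p = 0.00045, adjusted 0.00406). Leaving out CT22 and CT2 of day 2 gave r = 0.80, and the days alone gave 0.96 and 0.86. Nampt had r = 0.81 (permutation p = 0.00169, adjusted 0.00887) and rho = 0.80 (p = 0.00263, adjusted 0.0138). Without the same 2 libraries r was 0.68 and no longer passed (adjusted permutation p = 0.165), and within the days r was 0.67 and 0.91. In TPM it did not pass either (r = 0.72, adjusted permutation p = 0.0564). The part of other cells in the levels of Nampt and Nadk was not tested.

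**Figure D4:**
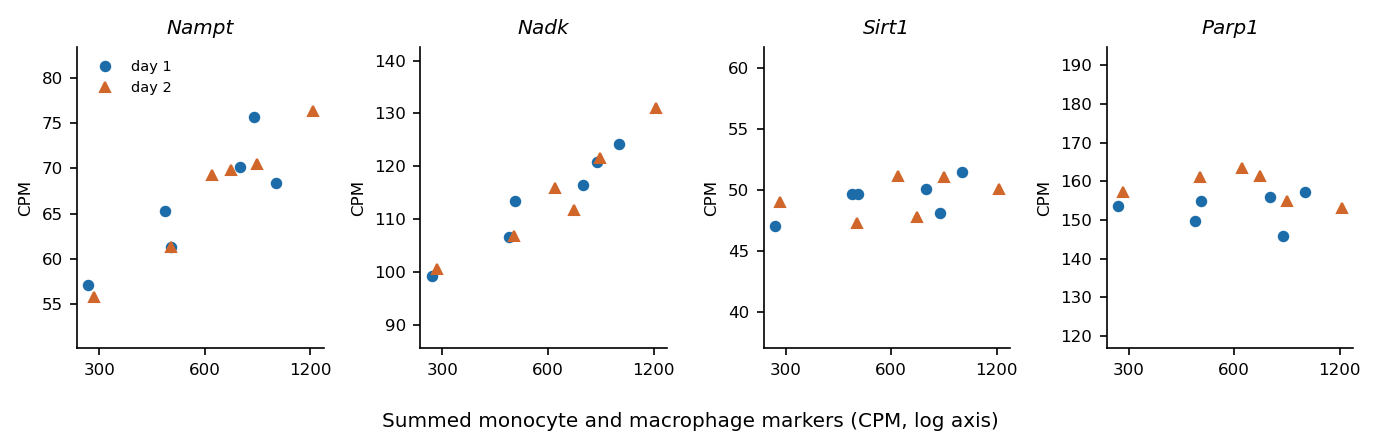
CPM of Nampt, Nadk, Sirt1 and Parp1 in each library against the summed CPM of 10 monocyte and macrophage markers on a log axis (circles day 1, triangles day 2). Nampt and Nadk are higher in libraries with a higher sum (r = 0.94 and 0.97 on log2 values), and Sirt1 and Parp1 have r = 0.52 and -0.09.

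The other 7 genes passed with neither marker sum. With the monocyte and macrophage sum, Sirt1 had r = 0.52 (adjusted permutation p = 0.31) and Sirt6, in the opposite direction, r = -0.58 (adjusted permutation p = 0.213). In TPM these were 0.13 and -0.25. The remaining 5 lay between -0.26 for Sirt3 and 0.09 for Sirt2, with Sirt7 at -0.24, Parp1 at -0.09 and Nmnat1 at -0.01. None of the 3 relations tested among the members and with the clock gene Dbp passed. Nampt and Sirt1 had r = 0.40 and rho = 0.41 (permutation p = 0.196 and 0.183, adjusted 0.458 and 0.385). Without the 2 CT10 libraries, the farthest from the median, r was 0.05, and the days alone gave 0.34 and 0.45. Nampt and Dbp, whose RNA follows the clock in most tissues, had r = -0.44 and rho = -0.55 (permutation p = 0.152 and 0.0698, adjusted 0.447 and 0.209), with r = -0.57 without CT10 and CT14 of day 2, -0.87 within day 1, -0.17 within day 2 and 0.08 in TPM. Sirt1 and Parp1 had r = 0.11 and rho = 0.17 (permutation p = 0.743 and 0.59, adjusted 0.973 and 0.775), with r = -0.36 without the 2 farthest libraries, 0.53 within day 1 and -0.32 within day 2, and in TPM r was 0.66 and rho -0.27 (adjusted permutation p = 0.335 and 0.901).

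Among 9694 named genes of at least 5 CPM, those closest to Nampt over the 12 libraries by Pearson's r of log2 CPM were Spic (0.96), a transcription factor of macrophages, Ctss (0.96), which encodes cathepsin S, Gngt2 (0.95), a G protein subunit, and P2ry13 (0.95), a nucleotide receptor. Those closest to Sirt1 were Ssr3 (0.94), part of the translocon complex of the endoplasmic reticulum, Derl2 (0.91), of the degradation route at the same membrane, Tpp2 (0.89), a peptidase, and Zfp959 (0.89), a zinc finger gene. For Nadk they were Nr1h3 (0.98), a nuclear receptor for oxysterols, Sap30 (0.98), a corepressor subunit, Adgre1 (0.97), the macrophage marker F4/80, and Clec4n (0.97), a lectin receptor. The Nadk set was looked up after the values were seen. These values describe 12 libraries and carry no test, and Adgre1 is also among the 10 markers summed for monocytes and macrophages.

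Several of the genes share their locus with others, which bears on what was counted. In GENCODE M21 coordinates of GRCm38, Nampt lies on chromosome 12 from 32819545 to 32853349 on the plus strand and overlaps Gdap10 on that strand. Sirt7, on chromosome 11 from 120618372 to 120625240 on the minus strand, overlaps Mafg on that strand. Reads of the shared stretch may be left out of the gene counts, or split between the 2 genes in the estimated counts of RSEM. Sirt1, on chromosome 10 from 63319005 to 63381704 (minus), overlaps only Gm16145 on the other strand. Sirt3 (chromosome 7, 140863666 to 140882309, minus), Sirt2 (chromosome 7, 28766735 to 28788661, plus) and Nmnat1 (chromosome 4, 149467572 to 149485202, minus) also have partners on the other strand only. Of the fragments on either strand of Sirt3, 13.0% were on the strand opposite to the gene, against 8.56% for Sirt2, 7.34% for Nmnat1 and 1.72% for Nampt. Nadk (chromosome 4, 155562378 to 155591001, plus) and Sirt6 (chromosome 10, 81621785 to 81627797, minus) had no annotated overlap, and Parp1 (chromosome 1, 180568924 to 180601254, plus) held only the microRNA gene Mir6904. The estimated counts of the same libraries were lower than the gene counts for all 9, from 0.766 times for Sirt6 to 0.949 times for Parp1.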

How the data were processed

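Polyadenylated RNA of 12 libraries was analysed, 1 for each of 6 circadian times on each of 2 days. RSEM 1.2.28, STAR 2.5.1b, Trimmomatic 0.35 and bcl2fastq 2.19 are named with build GRCm38, per the submitters' processing notes. The authors deposited unnormalised read counts per gene in STAR's layout, 1 column per strand treatment. Column 4 was used, because 77.6% to 80.9% of fragments matched no gene in the other stranded column and 11.4% to 13.9% in column 4. The 4 rows that name no gene, 29.3% to 31.2% of fragments, were left out. The authors also deposited RSEM's expected counts, rounded here to whole numbers where tested, and TPM and FPKM values scaled by gene length. Of the 50600 identifiers, 50376 matched a symbol in GENCODE M21, 45737 with the same version. All 9 genes matched RefSeq promoter windows.

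Counts were tested with edgeR 4.0.16 (quasi-likelihood F tests, TMM, filterByExpr with circadian time as the group) in R 4.3.3, with Benjamini-Hochberg adjustment over all tested genes and a threshold of 0.05. CPM used the TMM factors. The 24 h test took a cosine and a sine together, the test among times 5 coefficients, the day test a day term beside the wave, and the interaction test a wave per day. The common biological coefficient of variation was 0.0967 in the test among times. At this depth the members' counts per library ran from 143 (Nmnat1) to 5396 (Parp1). Log2 values for relations used a prior count of 2. Neighbouring levels were compared by flipping signs of the 12 differences. The tests were checked on simulated counts. Alternatives used limma 3.58.1 and DESeq2 1.42.0.

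The labels make the replicate number a day of collection, which pairs the libraries of a day. Over 8931 genes, the gap between the days was correlated across each of the 15 pairs of times, with r from -0.61 to 0.34 (median 0.08) and 6 above 0.1. The genes named beside the 9 are the 3 of smallest p in each test from the other pathway genes. Also named are the 4 most like Nampt, the 4 most like Sirt1, the clock references Dbp, Nr1d1 and Per2, and Cd8a, Cd8b1 and Cd3e. The 4 most like Nadk were added after their values were seen. The members and all lists were chosen with earlier results of these data known.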

Additional observations from a re-analysis of the deposited data

How the results depend on the processing

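The 4 tests of the 9 genes were repeated under up to 23 alternatives: other size factors, DESeq2, no filter, counts without regard to strand, limma on TPM with a pseudocount of 1 or 0.1, expected counts, the day as a replicate block, each library left out, and pairs of libraries left out. The number of the 9 called stayed at 0 except without CT2. Without both CT2 libraries 1 gene, Nadk, was called for the 24 h wave and 1, again Nadk, among circadian times, where all-gene counts rose as well, from 0 to 431 and from 42 to 527. Leaving out 1 library at a time gave 0 to 1 called among times, the 1 being Nadk without CT2 of day 1 or of day 2, where all-gene counts were 664 and 1745. The cause was not tested. With the replicate block, which pairs the libraries of a day, 0 of the 9 were called for the wave, among times and by day, and the adjusted p was 0.314 for the wave of Nadk and 0.0356 among times for Parp3. The wave by day test already holds the day and has no such fit.

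The amplitude ranged over the alternatives from 0.08 to 0.14 for Nampt (adjusted p 0.113 to 0.702), from 0.11 to 0.15 for Nadk (0.0309 to 0.468) and from 0.04 to 0.08 for Sirt1 (0.394 to 0.773). Parp3 passed among times in 15 of 23 alternatives (adjusted p 7.6e-09 to 0.388) and missed in limma on TPM (0.245 and 0.281) and without both CT14 libraries (0.388). All 8 steps in the order of levels held without each library. They held in FPKM too, but FPKM is TPM rescaled by 1 factor per library. That setting cannot change which of 2 genes is higher in a library and is no separate check. Of the 21 relations, 4 passed over 12 libraries, 3 without the 2 farthest libraries and 3 in TPM, but 2 within day 1 and 1 within day 2, where 6 libraries remain.

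The count over all genes depended more on the setting. For the wave it was 0, with 0 to 145 when 1 library was left out and up to 431 otherwise. Among times it was 42, with 6 to 1745 and 0 to 2146. Each time had 2 libraries, and in 6 of the 9 genes the widest gap between days exceeded the range of time means. No all-gene share was computed for that count.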
